A study of Mus musculus with 4 samples.

Results

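The 10 genes described here, Lgr5, Olfm4, Ascl2, Smoc2, Axin2, Rnf43, Znrf3, Sox9, Ephb2 and Cd44, were chosen by name as markers of intestinal crypt stem cells or targets of Wnt signaling, and their probes were found on the arrays through the RefSeq accession of each probe. A probe was matched for 9 of the 10, with 13 probes in all, among 32575 genes or identifiers on the array. No probe was matched to Olfm4, which was not analysed here. Transcript levels were measured in the duodenum and the spinal cord of male mice labelled IP6K2-KO (IP6K2-/-) or as their WT littermates, all 20 weeks old, which had received a purified diet (1 week) before a 48 h fast. IP6K2 is a kinase that makes the inositol pyrophosphate IP7. Each genotype and tissue was represented by 1 array, so differences between arrays are described without a test across mice. The purified diet and the fast were common to all 4 arrays, and the labels name no Cre driver.

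In the intestine, Wnt ligands bind Frizzled and LRP receptors and stabilize beta-catenin, which with Tcf/Lef factors turns on genes of the crypt base. Among these, Lgr5 is an R-spondin receptor of the cycling stem cells, Ascl2 a transcription factor that maintains them, and Smoc2 a secreted matrix protein found in them. Axin2, Rnf43 and Znrf3 are targets that in turn damp the pathway. Several of the genes are also used outside the gut, for example Sox9 in astrocytes and Cd44 in leukocytes.

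Levels are log2 of the processed signal minus the 75th percentile of the same array. The level of a gene was compared between arrays for 1 probe at a time. Between probes or genes, levels were compared to choose which to name and, centred on the mean of each gene, to find genes of like pattern. A summed level adds the signals of the genes of a marker list, each divided by the percentile, so the brightest genes weigh most. The 75th percentile was 905 and 972 on the WT and KO spinal cord arrays but 68.0 and 323 on the WT and KO duodenum arrays, and the share of probes well above background ran from 51.6% to 77.4%. Differences carry a technical standard deviation (SD), which was taken from 399 probes spotted 10 times on each array and covers spots within an array, not mice. Ip6k2 itself gave signals of 452 (WT) and 1320 (labelled KO) on the spinal cord arrays, a difference of 1.45, and of 139 and 572 on the duodenum arrays, a difference of -0.21. The files do not place its probe relative to the deleted part of the gene, so the genotypes are given as labelled. The duodenum arrays held intestinal epithelium, since all 9 epithelial markers were well above background on both, and also pancreatic acinar transcripts, for which all 7 markers were well above background. On the spinal cord arrays 5 (WT) and 6 (KO) of the 9 epithelial markers were well above background, with a summed level of 0.158 and 0.199 times the percentile against 602 and 415 on the WT and KO duodenum arrays. Epcam and Krt8 were not well above background there, and Cdh1 was so on the KO array only.

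**Figure D1:**
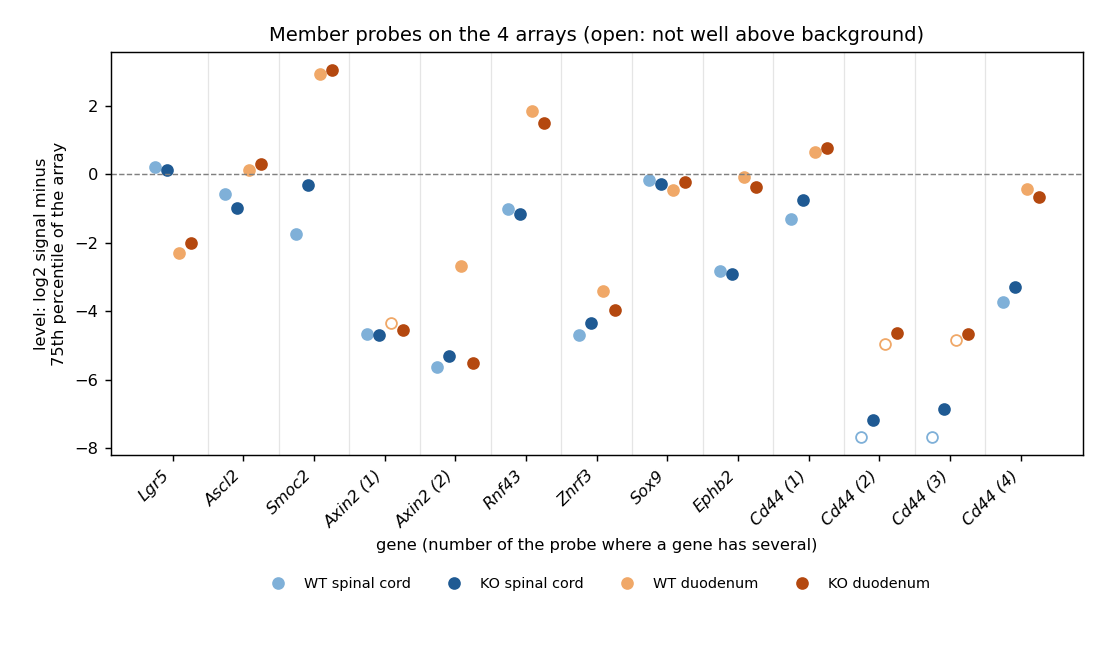
Level of each of the 13 probes of the 9 genes on the 4 arrays, as log2 processed signal minus the 75th percentile of the array (vertical axis), with 1 point per array and an open point where the probe was not well above background. Points compare arrays within a probe. Lgr5 lies lower on the duodenum arrays than on the spinal cord arrays, and Smoc2 and Rnf43 lie higher.

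Promoter sequences from RefSeq (build GRCm38.p6, 250 bases before to 50 after the start) were available for 6 of the 10 genes, in 7 promoters, of which 2 belong to Rnf43. The Tcf/Lef core CTTTGA, searched on both strands, occurs in 0 of these 7 and in 16% of the 32851 promoters of 300 bases. The shorter core CTTTG, which lies within it and was searched after that result was seen, occurs in 1 of the 7 and in 53.9% of all. Cd44 and Axin2 are shown because Cd44 held that single match and Axin2 is the textbook feedback target of the pathway. Capitals mark the match, which starts at position -163 counted from the start of Cd44 and reads in the opposite direction to the gene.
Axin2, chr11:108920099-108920398, plus strand: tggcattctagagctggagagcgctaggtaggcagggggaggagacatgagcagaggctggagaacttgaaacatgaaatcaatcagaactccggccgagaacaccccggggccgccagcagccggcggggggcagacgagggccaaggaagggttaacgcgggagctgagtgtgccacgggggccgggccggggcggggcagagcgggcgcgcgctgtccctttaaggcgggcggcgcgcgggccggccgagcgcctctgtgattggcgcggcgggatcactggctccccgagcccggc
Cd44, chr2:102901616-102901915, minus strand: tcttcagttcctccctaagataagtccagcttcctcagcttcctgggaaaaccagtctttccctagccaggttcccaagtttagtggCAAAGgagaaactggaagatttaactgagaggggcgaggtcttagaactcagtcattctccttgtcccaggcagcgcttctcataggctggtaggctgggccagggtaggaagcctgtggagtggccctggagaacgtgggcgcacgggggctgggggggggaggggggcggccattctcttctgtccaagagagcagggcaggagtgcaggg
No match says only that these letters are not in this window.

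In the duodenum, 8 of the 9 genes were measured on both arrays by the probe that stands for the gene, and 0 of these were at least 2-fold higher and 0 lower on the KO array, against 7.14% of all 21429 genes at least 2-fold higher and 11.9% at least 2-fold lower. Axin2 was not measured on both arrays by that probe, and its other probe differed by -2.83. Of the 8 genes, 5 lay above 0 and 3 below, between -0.54 for Znrf3 and 0.28 for Lgr5. Their median difference was 0.12, and the median of the 16812 genes measured on both arrays was -0.12. In the spinal cord, 1 of the 9 genes was at least 2-fold higher on the KO array and 0 were lower, against 2.28% and 0.868% of all 25216 genes, and that 1 gene was Smoc2. The median over the 9 was -0.07, with -0.04 for the median of all genes.

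**Figure D2:**
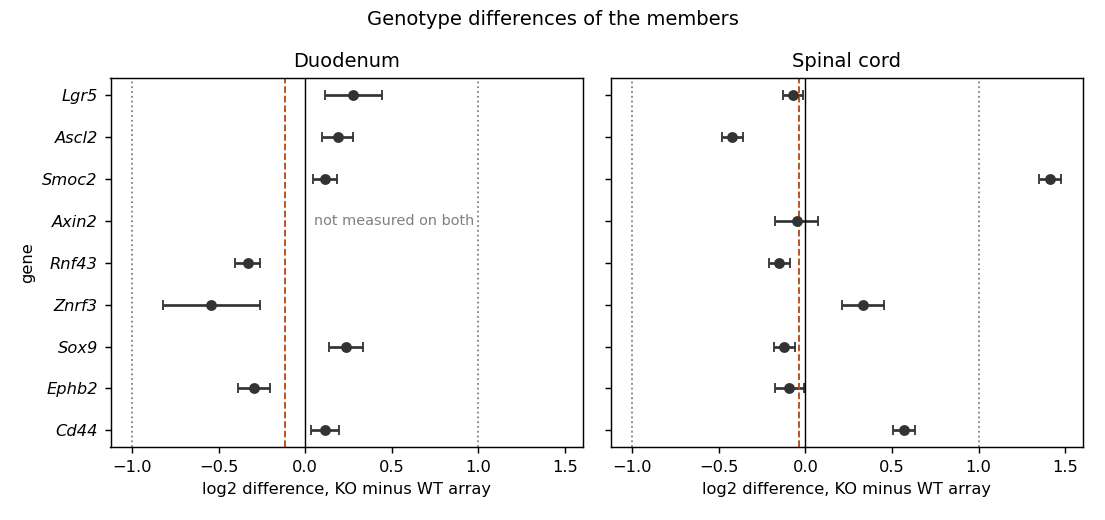
Log2 difference of the KO minus the WT array for each gene in the duodenum (left) and the spinal cord (right), with bars of 1 technical SD of spots. Dotted lines mark a 2-fold difference and the dashed line the median of all genes measured on both arrays. Smoc2 in the spinal cord, at 1.41, is the only gene past a dotted line.

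Among the stem cell markers, Lgr5 was bright in the spinal cord, with signals of 1036 on the WT array and 1058 on the KO array, and dim in the duodenum, with 13.9 on WT and 79.8 on KO. After subtraction of the percentile, its level was lower in the duodenum than in the spinal cord by -2.49 ± 0.16 (technical SD) in WT and by -2.14 ± 0.07 in KO, which is 5.62-fold and 4.41-fold. It was the only gene of the 9 at least 2-fold lower in the duodenum of either genotype. Its genotype differences were small, at 0.28 ± 0.16 for the duodenum and -0.07 ± 0.06 for the spinal cord. With a normexp background correction the duodenal genotype value was -0.62 and the WT tissue difference -0.999, just under 2-fold.

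Ascl2 gave signals of 611 on the WT and 489 on the KO spinal cord array, and of 73.8 and 399 on the WT and KO duodenum arrays. It fell by 0.42 ± 0.06 between the WT and KO spinal cord arrays, a 1.34-fold difference, and 94.7% of all genes had a higher value in that comparison. In the duodenum the KO array was 0.19 ± 0.09 above WT. Its tissue difference, duodenum minus spinal cord, was 0.68 ± 0.08 in WT and 1.30 ± 0.07 in KO, so it passed 2-fold on the KO arrays and not on the WT arrays.

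By the probe that stands for each gene, Smoc2 carried the largest genotype difference among the 9 genes. Its spinal cord signal went from 270 (WT) to 772 (KO), and after subtraction of the percentile the difference was 1.41 ± 0.07, or 2.66-fold, with 1.03% of genes having a larger one. With a normexp background correction it was 0.66, under 2-fold, where the median of all genes moved to -0.45. In the duodenum the signals were 513 on WT and 2639 on KO, a difference of 0.12 ± 0.07 once the percentiles were subtracted, of 0.30 after quantile normalization and of 0.60 with normexp. Its level was higher in the duodenum than in the spinal cord on both genotypes, by 4.66 ± 0.07 (25.2-fold) in WT and 3.36 ± 0.06 (10.3-fold) in KO.

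Markers of other cells moved on the same spinal cord arrays as Smoc2. Of the 6 fibroblast markers, all well above background on both arrays and none at 0, 4 were at least 2-fold higher on the KO array (2.28% of all genes were), with a median of 1.15 and a range from 0.00 to 2.05. Among them Dcn, a matrix proteoglycan, rose from 2109 to 8049 in signal (1.83 on the log2 scale), and the summed fibroblast level went from 6.73 to 14.9 times the percentile. Of the 7 leukocyte markers 4 were at least 2-fold higher (summed level 34.3 to 44.2). Another 2 were lower on the KO array, and the values ran from -0.42 to 1.76. Of the 5 red cell markers 3 were at least 2-fold higher (227 to 349). Of the 6 smooth muscle markers 1 was, Des at 3.44, and the others lay between -0.47 and 0.40 (median of all 6 -0.08). The 6 neuron markers lay between -0.30 and -0.01. In the duodenum the summed fibroblast level was 28.9 on WT and 26.8 on KO. The part of these other cells in the Smoc2 difference was not tested. In whole tissue, fewer cells of a type and less RNA per cell cannot be told apart.

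Of the genes that restrain Wnt signaling, Rnf43, a membrane ubiquitin ligase that removes Frizzled receptors, gave signals of 444 and 430 on the WT and KO spinal cord arrays and of 243 and 918 on the WT and KO duodenum arrays. The KO minus WT difference was -0.33 ± 0.07 for the duodenum, where normexp turned it to 0.11, and -0.15 ± 0.06 for the spinal cord. Its level was higher in the duodenum on both genotypes, by 2.86 ± 0.07 (7.28-fold) in WT and 2.68 ± 0.06 (6.43-fold) in KO.

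Znrf3, the relative of Rnf43 with the same activity, was dim on every array, with signals of 35.2 and 47.6 on the WT and KO spinal cord arrays and of 6.35 and 20.7 in the duodenum. Its WT duodenum signal lay near 4.34, the lowest signal well above background on that array. Its KO minus WT difference was -0.54 ± 0.28 for the duodenum and 0.33 ± 0.12 for the spinal cord. With a normexp background correction the duodenal value was -1.26. The spinal cord value was -1.68 with normexp, but 0.12 once flagged local backgrounds were replaced. The duodenum was higher than the spinal cord by 1.26 ± 0.26 in WT and by 0.39 ± 0.15 in KO.

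Axin2, a scaffold of the complex that degrades beta-catenin, was measured by a pair of probes that disagreed on the WT duodenum array. The brighter probe gave 36.0 and 37.3 on the WT and KO spinal cord arrays, 13.9 on the KO duodenum array and 3.37, not well above background, on the WT duodenum array. It therefore had no measured genotype difference in the duodenum, and its spinal cord difference was -0.05 ± 0.12. The spinal cord value was -1.88 with normexp, but -0.07 once flagged local backgrounds were replaced. The other probe gave 18.1, 24.7, 10.6 and 7.10 on the WT and KO spinal cord and the WT and KO duodenum, all well above background. Because the 75th percentile was 4.75 times higher on the KO than on the WT duodenum array, that probe's near-equal duodenal signals became a difference of -2.83 ± 0.27. The brighter probe's signal went from 3.37 to 13.9, and its level from -4.33 to -4.54. Because it was not well above background on the WT array, it could not check the other probe's duodenal difference.

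The other Wnt targets were measured well above background on all 4 arrays. Sox9, a transcription factor of crypt progenitors and of astrocytes, was spotted 10 times. It gave geometric mean signals of 801 and 790 on the WT and KO spinal cord arrays and of 49.0 and 274 in the WT and KO duodenum. Its level was close to equal on the 4 arrays. The KO minus WT difference was 0.24 in the duodenum (standard error of its own spots 0.05) and -0.12 (0.04) in the spinal cord. With normexp the duodenal value was 0.01. The duodenum differed from the spinal cord by -0.30 in WT and 0.06 in KO.

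Ephb2, a receptor tyrosine kinase that positions cells along the crypt, gave 128 and 129 on the WT and KO spinal cord arrays and 63.8 and 247 on the WT and KO duodenum arrays. The genotype difference was -0.30 ± 0.09 for the duodenum and -0.09 ± 0.09 for the spinal cord. The spinal cord value was -1.23 with normexp, but -0.10 once flagged local backgrounds were replaced. The duodenum was higher in both genotypes, by 2.73 ± 0.10 in WT and 2.53 ± 0.08 in KO.

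Cd44, a hyaluronan receptor, was measured by 4 probes. The brightest gave 364 and 579 on the WT and KO spinal cord arrays and 107 and 550 on the WT and KO duodenum arrays. In the spinal cord it was higher on the KO array by 0.57 ± 0.06, or 1.48-fold, and 4.64% of genes had a larger difference. With normexp that value was 0.04, where the median of all genes was -0.45, and with flagged local backgrounds replaced it was 0.47. A further probe, with signals of 67.8 and 98.1, gave 0.43 ± 0.10. The remaining probes, not well above background on the WT array, gave lower bounds of 0.48 ± 0.37 and 0.80 ± 0.37. Their KO signals were 6.67 and 8.36, near the lowest signal well above background on that array, 4.29. All 4 Cd44 probes were therefore higher on the KO spinal cord array, but the bound of 0.48 was smaller than 2 technical SD. The fibroblast markers and most of the leukocyte markers were also higher on that array. In the duodenum the brightest probe differed by 0.12 ± 0.08 and the further probe by -0.25 ± 0.09, so the probes did not share a direction there. The tissue difference of the brightest probe was 1.97 ± 0.08 in WT and 1.52 ± 0.06 in KO.

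**Figure D3:**
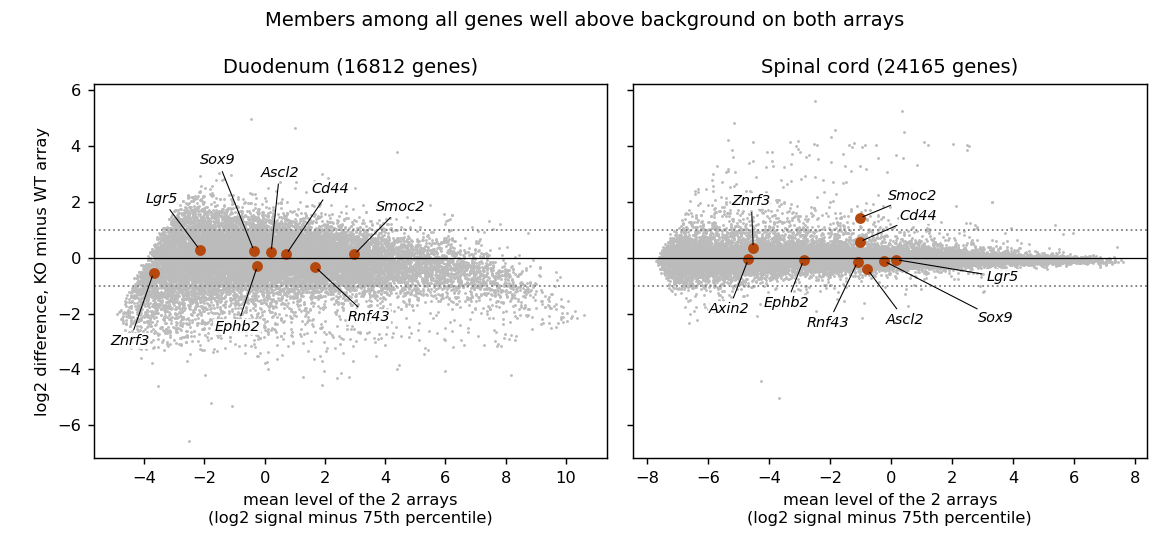
Log2 difference of the KO minus the WT array (vertical axis) against the mean level of both arrays (horizontal axis) for all genes well above background on both (grey) and for the described genes (orange), in the duodenum (left, 16812 genes) and the spinal cord (right, 24165 genes). Dotted lines mark 2-fold. The grey cloud is wider in the duodenum, where the described genes lie inside the dotted lines, and in the spinal cord Smoc2 lies above them.

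Between the tissues, 5 of the 9 genes were at least 2-fold higher in the WT duodenum than in the WT spinal cord and 1 was lower, against 30.2% and 23% of all genes. On the KO arrays the counts were again 5 higher and 1 lower, against 30.3% and 25.4%. Smoc2, Rnf43, Ephb2 and Cd44 were higher on both genotypes, Znrf3 on the WT arrays and Ascl2 on the KO arrays, and Lgr5 was the lower gene on both. The probe that stands for Axin2 gave no WT value, so 8 genes had one there, and it gave 0.17 ± 0.17 in KO. The other Axin2 probe, which was dim, gave 2.96 ± 0.21 in WT and -0.21 ± 0.22 in KO. The median difference of the genes was 1.62 in WT and 1.30 in KO, where the median of all genes was 0.63 and 0.30. When the arrays were scaled on their spiked-in controls instead, all genes shifted, the median gene by -4.41 in WT and -1.56 in KO, and the direction of 5 of these differences in WT (Smoc2, Rnf43, Znrf3, Ephb2, Cd44) and of 2 in KO (Ascl2, Cd44) turned. Relative to the median gene of each processing, Lgr5 stayed lower in the duodenum (between -3.12 and -1.44 in WT) and Smoc2, Rnf43, Ephb2 and Cd44 stayed higher.

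The same scaling raised the median gene by 2.89 between the WT and KO duodenum arrays, so that all 9 genes passed 2-fold there. Measured against the median gene, the 8 genes lay between -0.43 and 0.39. The 9 epithelial markers lay between -0.90 and 0.64 in that comparison with a median of -0.20. After quantile normalization of the 4 arrays that median was 0.17. Their summed level was 602 times the percentile on WT and 415 on KO. With the percentile subtracted, some other cells of the same tissue piece differed more. The 4 matched Paneth cell markers had a median of -1.60 (summed level 1060 to 295), the 5 red cell markers -3.77 (1532 to 88.3) and the 7 pancreatic acinar markers -1.74 (10267 to 3519), but after quantile normalization of the 4 arrays these medians were -0.60, -2.60 and 0.07. The part of these differences in tissue make-up in the values of the crypt genes was not tested.

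**Figure D4:**
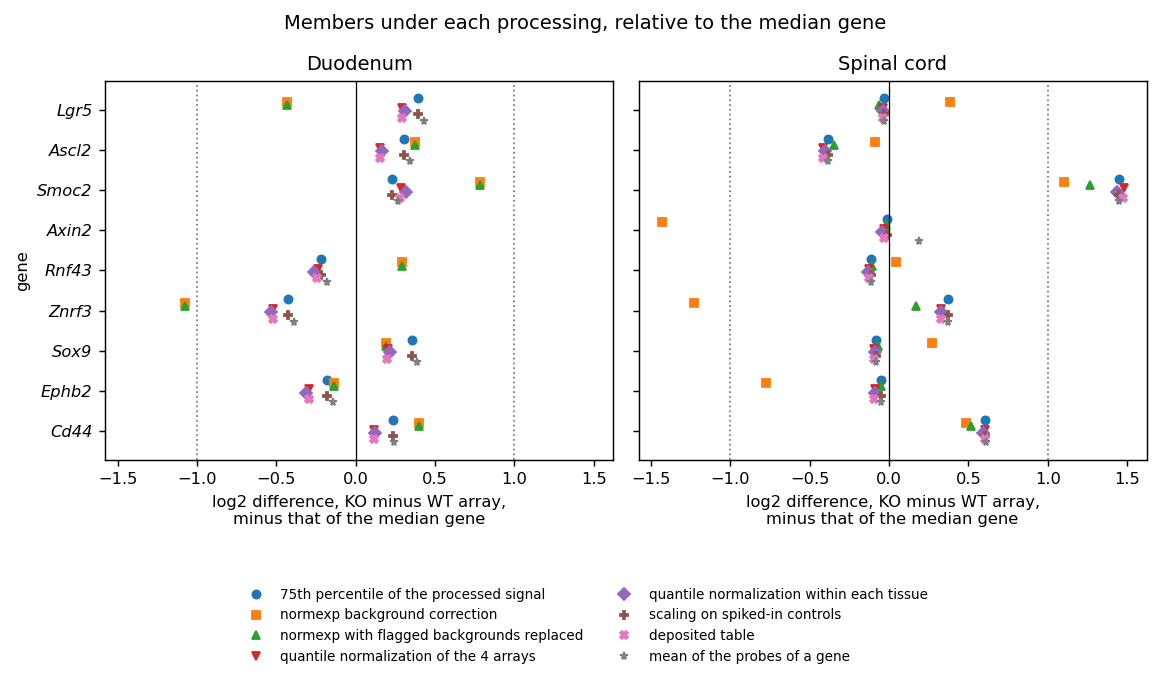
Log2 difference of the KO minus the WT array, minus that of the median gene, for each gene under the 8 ways of processing the arrays (symbols), in the duodenum (left) and the spinal cord (right). Dotted lines mark 2-fold. Smoc2 in the spinal cord lies past the line under all 8, while Znrf3, Lgr5, Axin2 and Ephb2 spread with the background correction.

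The rest of the pathway was read from a list of 77 further Wnt genes, all with a probe on the array. In the duodenum, 2 of the 61 well above background on either array were at least 2-fold higher on the KO array and 9 lower, where the shares over all genes were 7.14% and 11.9%, with a median of -0.40 over the 47 measured on both arrays and a range from -3.43 to 1.25. Among the ligands, Wnt1 had signals of 72.8 on WT and 109 on KO, a difference of -1.67 after subtraction of the percentile, and Wnt5a had 9.38 and 90.9, a difference of 1.03. Ligand secretion factors and R-spondins did not reach 2-fold, and the acyltransferase Porcn and Rspo1, of highest mean level over the 4 arrays in each, differed by -0.08 and -0.54. The measured genes of these roles ran from -0.08 to 0.45 and from -0.54 to 0.04.

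Of the 14 receptors, 13 were well above background on either duodenum array. Of these, 4 were at least 2-fold lower in the KO duodenum and 1 higher, beside the same 11.9% and 7.14% of all genes. Fzd5, a Frizzled receptor of the intestinal epithelium, went from a signal of 142 to 62.7 and differed by -3.43. Lgr6, an R-spondin receptor related to Lgr5, had near-equal signals of 7.98 and 7.94 and so differed by -2.26, and Fzd3 went from 8.04 to 90.6, a difference of 1.25. The secreted inhibitor Notum, a lipase that strips Wnt of its acyl group, differed by -2.37 (565 to 521). Dvl3, which relays the receptor signal, differed by -2.85 (5070 to 3347), and Tcf7l2, the main Tcf factor of the intestine, by -2.10 (170 to 188). Among 11 other target genes, Apcdd1 was not well above background on the KO array and was at least 2.50 lower on the log2 scale. The signals of Lgr6, Notum and Tcf7l2 were near-equal on both duodenum arrays, whereas the percentile was 4.75 times higher on KO.

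On the spinal cord arrays, 69 of the 77 Wnt genes were well above background on either array. Of these, 1 was at least 2-fold higher on the KO array and 0 were lower, beside 2.28% and 0.868% of all genes. The higher gene was the ligand Wnt6, with signals of 29.6 and 120 and a difference of 1.91. The median over the 67 measured genes was -0.02. For each remaining role the gene of highest mean level over the 4 arrays, namely Porcn, Rspo1, the co-receptor Lrp6, the secreted inhibitor Dkk3, the kinase Gsk3a, the nuclear factor Pygo2 and the target Ephb3, differed in the spinal cord by between -0.26 and 0.11. All 7 nuclear factors were higher on the KO array, from 0.11 to 0.36 with a median of 0.21. Of the 9 cytoplasmic components 8 were lower, with values from -0.13 to 0.01. The secreted inhibitors ran from -0.26 to 0.59 and the R-spondins from -0.25 to 0.28.

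Another list held 24 crypt genes outside the Wnt pathway, and in the KO duodenum 2 of these were at least 2-fold higher and 1 lower, beside 7.14% and 11.9% of all genes. The 3 are listed under niche signals. Egf, a growth factor for crypt cells, had signals of 8.66 and 135 and differed by 1.72, and Bmp4, a stromal factor that opposes stem cell renewal, had 61.7 and 852 and differed by 1.54. Efnb1, a ligand of Ephb2, had 3657 and 5272 and differed by -1.72. For the other roles, none of which reached 2-fold, Clu, Slc12a2 and Notch2, the genes of highest mean level over the 4 arrays, differed by 0.51, 0.07 and -0.10. Reserve stem cell markers, the role of Clu, ran from -0.78 to 0.51, and crypt base markers from -0.67 to 0.77. All 6 Notch pathway genes were lower on the KO array, from -0.60 to -0.10. Their median was -0.50, where the median of all genes was -0.12. In the spinal cord the niche transcription factor Foxl1 was not well above background on the WT array and was higher on the KO array by at least 1.47 on the log2 scale. Clu, Slc12a2 and Notch2 differed by -0.11, -0.05 and 0.12 there. The measured values of these roles ran from -0.42 to 0.07, from -0.10 to 0.53 and from -0.73 to 0.12.

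**Figure D5:**
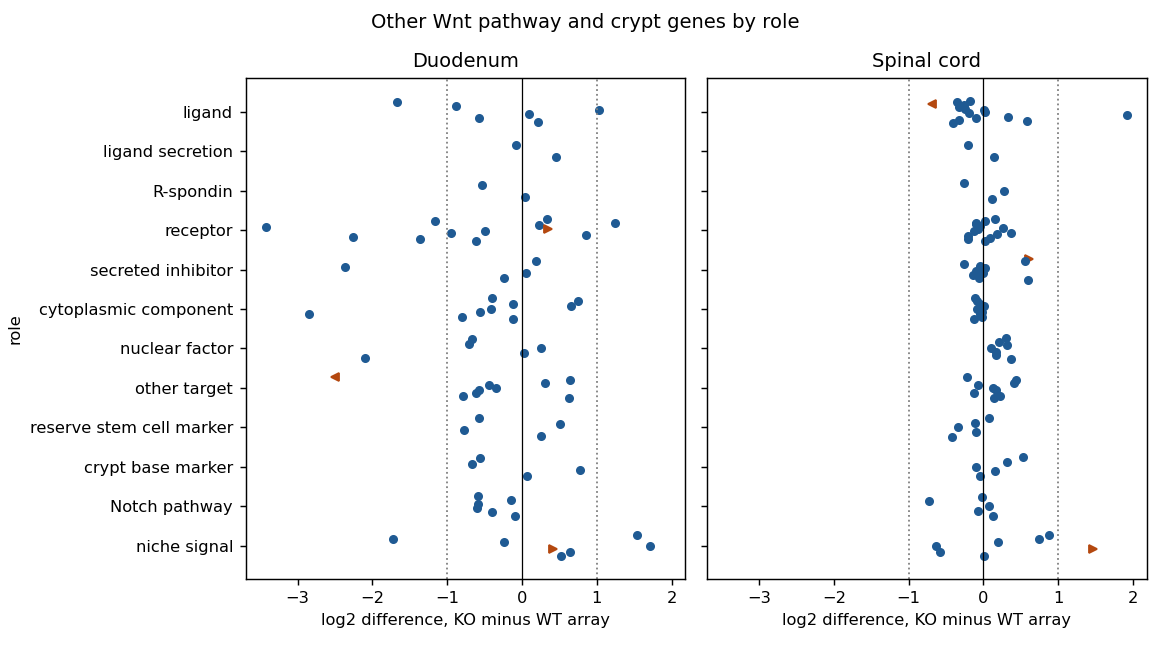
Log2 difference of the KO minus the WT array for the other Wnt pathway and crypt genes that had a value, grouped by role (vertical axis), in the duodenum (left) and the spinal cord (right). Circles are measured differences, triangles are bounds for genes well above background on 1 array only, and dotted lines mark 2-fold. The spread in the duodenum runs from -3.43 (Fzd5) to 1.72 (Egf), and in the spinal cord Wnt6 and Foxl1 lie past 2-fold.

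The genes whose pattern over the 4 arrays lay nearest to each described gene were found by the Euclidean distance between levels, each centred on the mean of its gene, among 16185 genes well above background on all arrays. The nearest to Lgr5 were Slc25a33, Kcnip3 and Trim32, at distances of 0.07 to 0.08. The nearest to Ascl2 were Gabrr1, Lats1 and Dazap2, at 0.12 to 0.14. For Smoc2 the distances were larger, at 0.16 for Plbd1, 0.23 for Mob3b and 0.25 for Sostdc1, a secreted antagonist of Bmp and Wnt signaling. For Znrf3 the nearest gene, at 0.07, was the receptor Fzd8, followed by Dcps and Tmem255b at 0.13. Znrf3 and Fzd8 were both dim, with WT duodenum signals of 6.35 and 6.37, near the lowest signal well above background there, 4.34. The Znrf3 differences also changed with the background correction. Rnf43 lay nearest to Slc22a5, Gucy1b2 and Cxadr, and Sox9 to Zfp330, Sap130 and Prpf38a, with the smallest distance of all, 0.02, at Zfp330. Ephb2 lay nearest to Stard4, Igsf9 and D830030K20Rik, and Cd44 to Frmd8, Gimap8 and Ccdc102a. With 4 arrays these distances describe this set of arrays.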

How the data were processed

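Total RNA of whole duodenum and spinal cord was labelled with Cy3 and hybridised to 1-colour Agilent mouse arrays, 1 array per genotype and tissue. The deposited scanner files hold the processed signal intensity of each spot, which Agilent Feature Extraction 11.5.1.1 had corrected for background within the array, and, per the file headers, other columns of flags. The authors also deposited a table of log2 values, which matched a quantile normalization of the 4 arrays with signals below 1 raised to 1 (median absolute difference at most 0.0022), so its scale is log2, it is not centred per gene, and its column medians lay between 5.11 and 5.12.

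Of 43020 spots that were not controls, 89 to 133 flagged spots per array were left out and 0 were saturated. Log2 of each spot was taken, the log2 values of the spots of a probe were averaged, and the 75th percentile of the array was subtracted. Probes were named by RefSeq accession (25864 of 26387 matched), and the probe with the highest mean stands for a gene. A probe was well above background where at least as many spots were flagged so as not. Where only 1 array was, the difference is a bound. The other array was then taken at the higher of its own lowest signal well above background and the probe's value on it. Genes at least 2-fold apart are counted, with no test. The difference calculation was tested on simulated data. No array of a group has a replicate, so the spread between mice is unknown, and the number of arrays limits the precision. The described genes and all lists were chosen with earlier results of these data known. Besides the described genes, the text names per role of the Wnt and crypt lists the 2 largest rises and falls among genes at least 2-fold apart or else the gene of highest mean level over the 4 arrays (a choice of what to name, not a comparison of levels), and for each gene the 3 nearest in pattern. Alternatives were normexp background correction (limma 3.58.1, offset 50) with and without replacing flagged local backgrounds, quantile normalization over 4 arrays or within a tissue, spiked-in controls (8 probes), the deposited table and the mean of a gene's probes. R 4.3.3, Python 3.11.15, numpy 2.4.6 and pandas 2.3.3 were used.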

Additional observations from a re-analysis of the deposited data

Results flagged for a closer look

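Ascl2 moved in opposite directions between genotypes in the tissues, with the KO array 0.19 above WT in the duodenum and 0.42 below WT in the spinal cord (differences of 0.19 and -0.42). The contrast between the tissues was 0.61 on the log2 scale, and each difference was larger than 2 technical SD of spots. Relative to the median gene of each processing, the spinal cord value lay between -0.42 and -0.09. The -0.09, with normexp, was under 2 technical SD. The duodenal value lay between 0.15 and 0.37. Lgr5, Znrf3 and Sox9 also moved in opposite directions. Sox9 differed by 0.236 and -0.121, each larger than 2 standard errors of its own spots (0.047 and 0.038). It was not flagged because -0.121 was under 2 technical SD (SD 0.062). With normexp the duodenal Sox9 value was 0.01. With 1 array per genotype and tissue, the difference between the tissues was not tested.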

How the results depend on the processing

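No paired analysis was possible because the groups share a single replicate number. No leave-one-out was possible for the same reason. Of 221 values of single genes under the alternatives, 107 moved by less than 1 technical SD, 93 moved further with their sign kept, 14 moved with a changed sign without having been 2-fold, and 7 that had been 2-fold reversed, all 7 under scaling on spiked-in controls: Smoc2 -0.38, Rnf43 -2.17, Znrf3 -3.77, Ephb2 -2.31 and Cd44 -3.07 for duodenum minus spinal cord in WT, and Ascl2 -0.57 and Cd44 -0.35 in KO. The cause was not tested.

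Under that scaling the median difference of the described genes was 3.12 for KO minus WT duodenum and -0.24 for the spinal cord, and -3.42 (WT) and -0.57 (KO) for duodenum minus spinal cord. The counts past 2-fold became 9 higher in the KO duodenum, 0 higher and 8 lower in the WT tissue comparison, and 1 higher and 4 lower in the KO tissue comparison. Of the 77 Wnt genes, 54 were then higher in the KO duodenum. With normexp the spinal cord median was -0.40, with 0 genes higher and 3 lower, and Smoc2 at 0.66 (22 of the Wnt genes lower and 0 higher), where the median of all genes was -0.45. On the WT spinal cord array the local background reached 15708, and with flagged backgrounds replaced Smoc2 was 1.22. With normexp of either kind 1 gene, Znrf3 (-1.26), was lower in the KO duodenum, as were 13 of the Wnt genes, and 9 Wnt genes were higher when the deposited values were used. The median of the tissue difference in WT was 0.89 with normexp (0 genes lower), 1.91 with replaced backgrounds, 1.73 after quantile normalization, 1.72 in the deposited values and 1.98 with the mean of probes, and in KO it was 1.11 with either normexp.

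Dim probes limit the duodenum most: 51.6% and 66.3% of probes were well above background on its WT and KO arrays.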

Other observations

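A list of 19 proliferation genes, which the cycling cells of the crypt express, was also read. In the duodenum 16 were measured on both arrays, with a median of -0.18 and a range from -1.19 for Mcm5 to 1.07 for Top2a, the only genes past 2-fold (7.14% of all genes were higher and 11.9% lower). Pcna and Mcm6, of highest mean level over the 4 arrays, differed by -0.46 and 0.29. In the spinal cord 17 were measured, with a median of 0.44, and 4 were at least 2-fold higher on the KO array, as were 2.28% of all genes. These, named after their values were seen, were Mki67 (signals 261 and 776, a difference of 1.47), Ccnb1 (1.11), Top2a (1.08) and Bub1, which was not well above background on WT and was at least 1.38 higher on the log2 scale. Pcna and Mcm6 differed by -0.05 and 0.19 there. Mki67 had a larger signal on the KO spinal cord array than on the WT one, as had Smoc2 and Cd44. Markers of fibroblasts and red cells and most of the leukocyte markers were higher on that array too.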
